A study of Mus musculus with 17 samples.

Results

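Toll-like receptors are germline-encoded sensors of microbial products. The members described here were the 10 genes Tlr1, Tlr2, Tlr3, Tlr4, Tlr5, Tlr6, Tlr7, Tlr8, Tlr9 and Tlr13, taken by symbol from 3 tables of RNA-seq values of sorted mouse Kupffer cells (KCs). Each table lists 25124 genes, and all 10 members were found in each. The first table holds TIM4+CD206+ KCs, the main KC subset, from 3 tumour-free and 3 tumour-bearing livers. The second holds the minor TIM4+CD206hi KCs, again from 3 tumour-free and 3 tumour-bearing livers. Tumour-bearing livers were taken 2 weeks after KPC cells, a pancreatic adenocarcinoma line, had been injected into the portal vein. The third table holds KCs without tumour from 3 Id3f/f mice, which carry floxed Id3 alleles but no recombinase, and 2 Clec4fCreId3f/f littermates. Clec4f is a KC gene, so Cre removes Id3 from differentiated KCs and not from their progenitors. The floxed alleles were shared by both genotypes. The sources used here give no strain, sex or age for the sequenced mice.

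Tlr1, Tlr2, Tlr4, Tlr5 and Tlr6 act at the cell surface, where they recognise bacterial lipopeptides, lipopolysaccharide and flagellin. Tlr3, Tlr7, Tlr8, Tlr9 and Tlr13 act in endosomes, where they recognise nucleic acids after uptake. Both classes signal through the adaptors MyD88 or TRIF to NF-kB and interferon regulatory factors, and KCs meet such products in portal blood.

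Values were on a log2 scale after a transformation that draws genes with few reads towards their mean, so differences of low genes are understated. Each table was normalized on its own. Moved back to a linear scale, the values summed to 34088222 to 39683810 per sample for TIM4+CD206+ KCs, 32647027 to 35102220 for TIM4+CD206hi KCs and 21823885 to 24050946 for the Id3 table. All 10 genes of a KC marker list, Clec4f and Timd4 among them, reached the minimum set for testing, a value of log2 of 10, in each table.

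Tlr2, which pairs with Tlr1 or Tlr6 to bind lipopeptides, had the highest level per kilobase of transcript among the 10 receptors in every group. Levels between genes are given as the log2 value minus log2 of the transcript length in kilobases. Tlr2 overlapped Tlr4 on this scale in tumour-free and in tumour-bearing TIM4+CD206hi KCs. Without the division by length, Tlr4 (12.535) and Tlr13 (12.347) were above Tlr2 (12.298) in tumour-bearing TIM4+CD206hi KCs. On this scale Tlr2 was at 11.30 in tumour-free TIM4+CD206+ KCs, 11.20 in tumour-free TIM4+CD206hi KCs and 10.27 in Id3f/f KCs (means, n = 3 each). The next level in tumour-free TIM4+CD206+ KCs was 8.92, that of Tlr13, the sensor of bacterial ribosomal RNA. Tlr1 (8.88), the lipopolysaccharide receptor Tlr4 (8.48), Tlr8 (7.93), the single-stranded RNA sensor Tlr7 (7.77) and Tlr6 (7.47) followed, and each overlapped its neighbour in this order. Below them stood Tlr3 (5.88), which binds double-stranded RNA, then Tlr9 (4.52), which binds unmethylated CpG DNA, and last the flagellin receptor Tlr5 (2.13). These last levels did not overlap with one another.

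More neighbours overlapped in tumour-free TIM4+CD206hi KCs. There neighbours overlapped in the order Tlr2 (11.20), Tlr4 (10.69), Tlr13 (10.06), Tlr8 (9.97), Tlr1 (9.56) and Tlr7 (9.41). Tlr7 did not overlap Tlr3 below it. Of the 9 neighbouring pairs in the order, 7 overlapped in this group and 5 in tumour-free TIM4+CD206+ KCs. Tlr3 (8.48) and Tlr6 (7.83) followed and overlapped as well. At the bottom, Tlr5 (4.03) and Tlr9 (3.80) overlapped, and their order was the opposite of that in TIM4+CD206+ KCs, where Tlr9 was above Tlr5. In tumour-bearing livers 2 of 9 pairs overlapped in TIM4+CD206+ KCs and 3 of 9 in TIM4+CD206hi KCs. In Id3f/f KCs, Tlr4 (9.09), Tlr13 (8.96), Tlr1 (8.74), Tlr7 (8.66) and Tlr8 (8.23) lay close together, and Tlr9 (2.07) and Tlr5 (1.02) were far below.

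**Figure D1:**
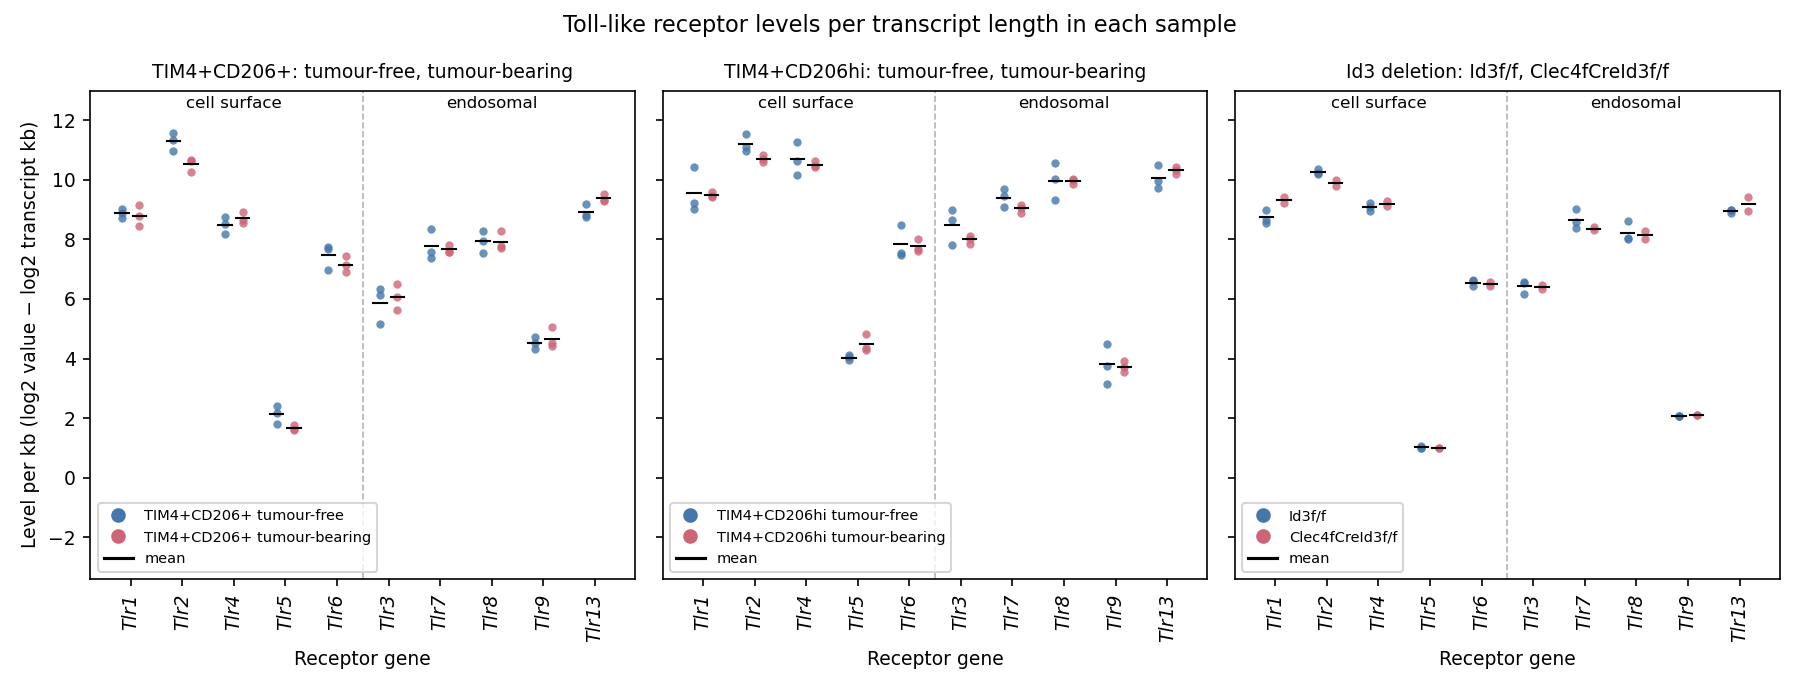
Level of each receptor per kilobase of transcript in each sample (y axis, log2 value minus log2 kilobases), with cell surface receptors left and endosomal receptors right of the dashed line, and with the groups of each table in a panel. Points are samples and bars are means. Tlr2 has the highest mean on this scale in all 6 groups, with samples overlapping those of Tlr4 in TIM4+CD206hi KCs, and Tlr5 and Tlr9 are the lowest.

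The surface receptors had the higher class median per kilobase in all 6 groups, although without the division by length the order turned in tumour-free TIM4+CD206hi KCs. The median of the 5 surface receptors was above that of the 5 endosomal ones by 0.74 ± 0.35 (SD, n = 3, log2 per kilobase) in tumour-free TIM4+CD206+ KCs and by 1.01 ± 0.13 in tumour-bearing ones. It was above by 0.45 ± 0.15 in tumour-bearing TIM4+CD206hi KCs. In tumour-free TIM4+CD206hi KCs the difference was 0.15 ± 0.52, with samples from −0.22 to 0.75, and it was −0.21 when levels were not divided by length. In the Id3 table it was 0.52 ± 0.53 in Id3f/f KCs and 1.02 ± 0.11 in Clec4fCreId3f/f KCs (n = 2). Both classes held highly and barely expressed members, and the range within a class was wider than the difference between the class medians.

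Tlr1 and Tlr6 are neighbours on chromosome 5 and share stretches of coding sequence. Read pairs that lie wholly within such a stretch cannot be assigned to either gene with certainty. The identical runs of at least 100 bases were 119, 229 and 208 bases long, and 8.9% of the 100-base windows of the Tlr1 transcript also occur in Tlr6. The longest run is shown because it bears on every Tlr1 and Tlr6 value given here. It lies in a coding exon of Tlr1 at chr5:64925537-64925765 and of Tlr6 at chr5:64953828-64954056 (GRCm38, minus strand, GENCODE transcripts).
Tlr1 and Tlr6: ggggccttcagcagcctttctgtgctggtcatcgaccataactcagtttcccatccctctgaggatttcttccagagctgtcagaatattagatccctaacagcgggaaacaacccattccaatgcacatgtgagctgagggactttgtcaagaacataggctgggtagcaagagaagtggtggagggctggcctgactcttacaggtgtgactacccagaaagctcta
None of the other 8 receptors shared a window of 100 bases with another member. A 117-base part of an exon of Tlr3 is overlapped by Gm45542 on the opposite strand, and the library kit does not mark strand.

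The gene spans are those of GENCODE in GRCm38. Tlr2 lies at chr3:83836272-83841767, Tlr4 at chr4:66827584-66930284, Tlr5 at chr1:182954788-182976044 and Tlr9 at chr9:106222598-106226883. Tlr3 lies at chr8:45395665-45411080, Tlr1 at chr5:64924679-64933563 and Tlr6 at chr5:64952031-64960097. Of the endosomal receptors, 3 are on the X chromosome, with Tlr8 at chrX:167242696-167264329, Tlr7 at chrX:167304929-167330558 and Tlr13 at chrX:106143204-106160493. Tlr7 and Tlr8 are separated by 40599 bases.

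Several receptors had higher values in the TIM4+CD206hi table than in the TIM4+CD206+ table, but these levels are set across tables that were normalized separately and were not tested. The median over the 13110 genes tested in both was 0.56 higher in the tumour-free TIM4+CD206hi table (log2). Against this, Tlr3 was 2.60 higher, Tlr4 2.21, Tlr8 2.04, Tlr5 1.91 and Tlr7 1.64 higher. Tlr13 was 1.14, Tlr1 0.68 and Tlr6 0.36 higher. Tlr2 was at 12.89 in one table and 12.79 in the other, and Tlr9 was lower in the TIM4+CD206hi table by 0.71, at 5.60 against 6.31. In tumour-bearing livers the same differences were 1.93 for Tlr3, 1.80 for Tlr4, 2.04 for Tlr8, 2.82 for Tlr5 and −0.95 for Tlr9, beside a median of 0.86 over all genes. Endothelial marker genes also differed between the tables: their summed level was 13.98 to 14.70 in tumour-free TIM4+CD206+ samples and 17.18 to 17.84 in tumour-free TIM4+CD206hi samples. The summed level of 5 sex-linked genes also differed, at 9.16 to 9.70 in tumour-free TIM4+CD206+ and 12.70 to 13.53 in tumour-free TIM4+CD206hi samples. The part of the endothelial and sex-linked genes in the receptor levels was not tested.

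Within a group, 1 sample often held the highest value of most receptors. In tumour-free TIM4+CD206hi KCs, replicate 3 held the highest of the 3 values for 9 of 10 receptors and replicate 2 the lowest for 8 of 10. Over all genes tested in that table, replicate 3 was the highest for 42.1% and replicate 2 the lowest for 35.1%. Replicate 3 deviated from its group mean by a median of 0.55 over the receptors and 0.009 over all tested genes. Tlr4, for example, was at 12.67, 12.18 and 13.30 in replicates 1 to 3, and Tlr8 at 11.79, 11.10 and 12.36. In TIM4+CD206+ KCs, tumour-bearing replicate 1 was highest for 9 of 10 receptors and tumour-free replicate 1 for 7 of 10. Over all tested genes these shares were 35.3% and 35.7%. Between conditions, the median absolute difference of the receptors was 0.22 in TIM4+CD206hi KCs and 0.21 in TIM4+CD206+ KCs, beside 0.31 and 0.25 for all tested genes.

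**Figure D2:**
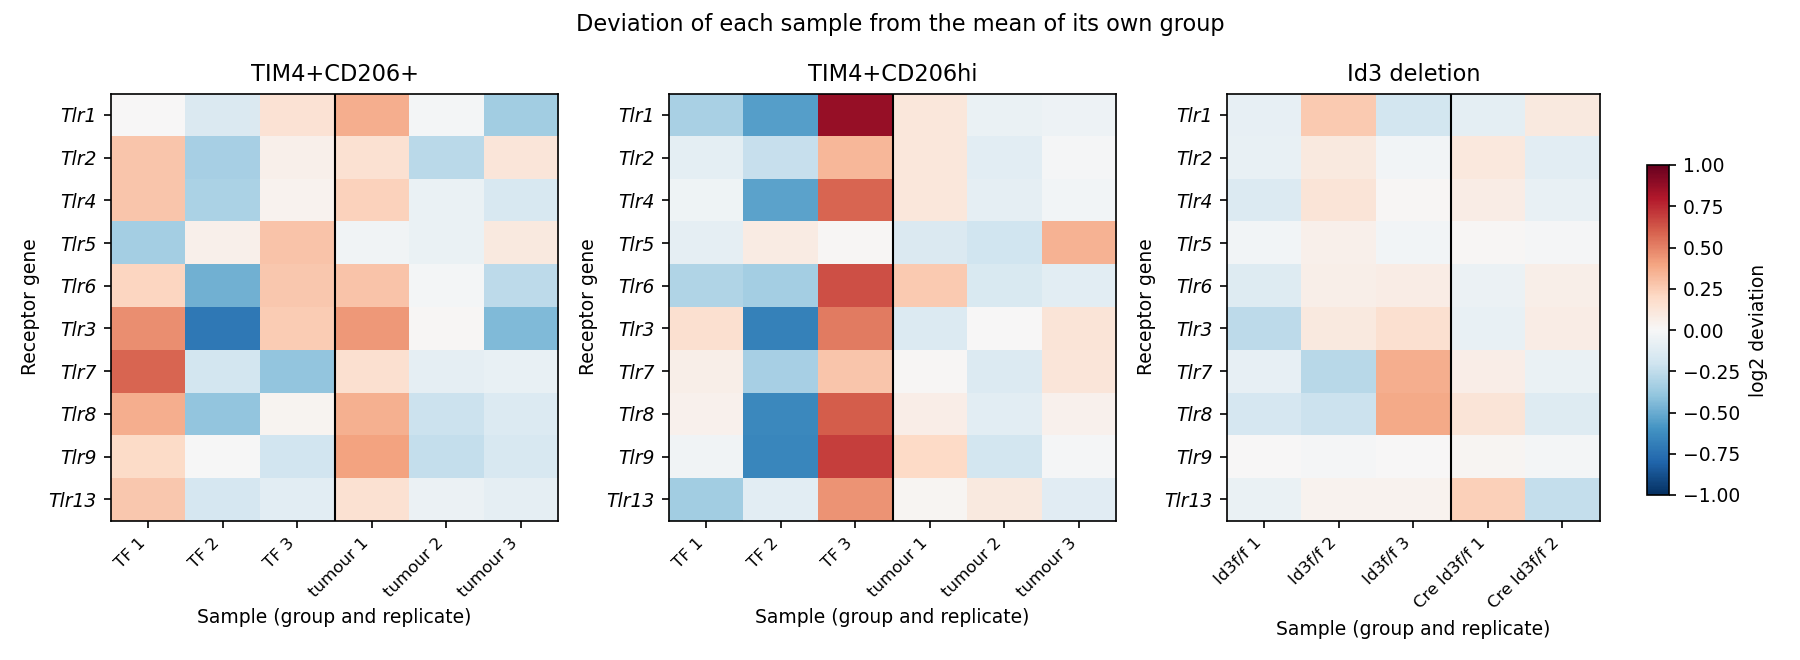
Deviation of each sample from the mean of its own group for the 10 receptors (colour, log2, red above and blue below the group mean), with columns for samples (TF, tumour-free; Cre Id3f/f, Clec4fCreId3f/f) and a black line between the groups of a table. Tumour-free TIM4+CD206hi replicate 3 is red and replicate 2 blue for nearly all receptors, and in Id3f/f KCs Tlr7 and Tlr8 are highest in replicate 3.

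The first comparison asked how receptor expression in TIM4+CD206+ KCs differs between tumour-bearing and tumour-free livers. None of the 10 receptors had an adjusted p under 0.05 (limma, Benjamini-Hochberg over 13233 genes), where 3.54% of all tested genes did (2.55% higher and 0.998% lower in tumour-bearing livers). At an unadjusted p under 0.05 there were 3 of 10 receptors, against 17.2% of all genes. The median difference of the receptors was −0.05 and that of all tested genes 0.02. Tlr2 showed the largest difference of the 10. Its values were 13.17, 12.56 and 12.94 in tumour-free and 12.26, 11.84 and 12.23 in tumour-bearing samples. All tumour-bearing samples were below all tumour-free ones. The difference was −0.78 (SE 0.21, 95% confidence interval −1.25 to −0.31), with a limma adjusted p of 0.0874. Same-numbered samples deviated alike from their group means in this subset, although the labels state no pairing. A fit with a replicate block gave Tlr2 a limma adjusted p of 0.012. It was 0.0156 without tumour-free replicate 2. These were the only 2 of 12 other settings that passed, and the highest limma adjusted p of the settings was 0.272.

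The partners of Tlr2 did not show such a separation. Tlr1 was at 10.48, 10.33 and 10.62 in tumour-free and 10.76, 10.38 and 10.05 in tumour-bearing samples (difference −0.08, interval −0.58 to 0.42). The difference of Tlr6 was −0.31 (interval −0.93 to 0.31). For both genes the groups overlapped. Tlr4 differed by 0.23 (interval −0.25 to 0.71), also with overlap. Tlr5 was low throughout, at 3.72, 4.11 and 4.34 in tumour-free and 3.57, 3.54 and 3.70 in tumour-bearing samples. The tumour-bearing samples were all lower, and the difference of −0.46 had a limma adjusted p of 0.237.

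Of the endosomal receptors, Tlr13 was at 11.21, 10.77 and 10.84 in tumour-free and 11.56, 11.35 and 11.31 in tumour-bearing samples. Its groups did not overlap, with the tumour-bearing samples higher. The difference of 0.46 (interval 0.05 to 0.88) had a limma adjusted p of 0.238. Groups that do not overlap were found for 3 of 10 receptors and for 23.4% of all tested genes. The differences of Tlr3 (0.19), Tlr9 (0.16), Tlr7 (−0.10) and Tlr8 (−0.02, above 0 under quantile normalization) were within the spread between samples. The widest interval was that of Tlr3, from −0.66 to 1.03.

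The same comparison was made in TIM4+CD206hi KCs. Again none of the 10 receptors had an adjusted p under 0.05 (limma, 14561 genes), where 7.23% of all tested genes did (5.21% higher and 2.03% lower), and 1 of 10 had an unadjusted p under 0.05, against 21.1%. The library median over tested genes was 0.16 higher with tumour in this table, and the share of calls that were higher was 72.0%, or 56.2% under quantile normalization. Differences were below 0 for 8 of 10 receptors, with a median of −0.08 beside 0.03 for all tested genes. Tlr2 was at 12.69, 12.55 and 13.12 in tumour-free and 12.41, 12.19 and 12.29 in tumour-bearing samples. The tumour-bearing samples were again all lower. The difference was −0.49 (SE 0.19, interval −0.93 to −0.04), with a limma adjusted p of 0.202.

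Tlr5 had the opposite sign in this subset. It was at 5.87, 6.04 and 5.98 in tumour-free and 6.28, 6.22 and 6.77 in tumour-bearing TIM4+CD206hi samples, all of the latter being higher. The difference of 0.46 (interval −0.07 to 0.98) had a limma adjusted p of 0.291. It was 0.051 under quantile normalization, 0.30 with median centring and 0.29 without tumour-bearing replicate 3, whereas in TIM4+CD206+ KCs the quantile value was −0.51. Groups did not overlap for 2 of 10 receptors and for 30.7% of all tested genes. Whether the response of Tlr5 differs between the subsets was not tested, because the tables were normalized separately.

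Tlr3 was at 10.78, 9.94 and 11.14 in tumour-free and 10.00, 10.14 and 10.27 in tumour-bearing TIM4+CD206hi samples. The tumour-free samples were both the highest and the lowest, and the difference of −0.48 had a limma adjusted p of 0.4. Without tumour-free replicate 2, the lowest sample, the difference was −0.82 with a limma adjusted p of 0.0201. Of 12 other settings, only this 1 passed. Tlr7 differed by −0.37 (interval −0.84 to 0.10) and Tlr13 by 0.27 (interval −0.27 to 0.80). The differences of Tlr4 (−0.18), Tlr9 (−0.08, and −0.49 under quantile normalization), Tlr1 (−0.07), Tlr6 (−0.06) and Tlr8 (−0.02, above 0 under quantile normalization) were smaller than the SD of the tumour-free samples. Without tumour-free replicate 3, those of Tlr1 (0.37), Tlr4 (0.11), Tlr6 (0.26), Tlr8 (0.29) and Tlr9 (0.26) were above 0.

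**Figure D3:**
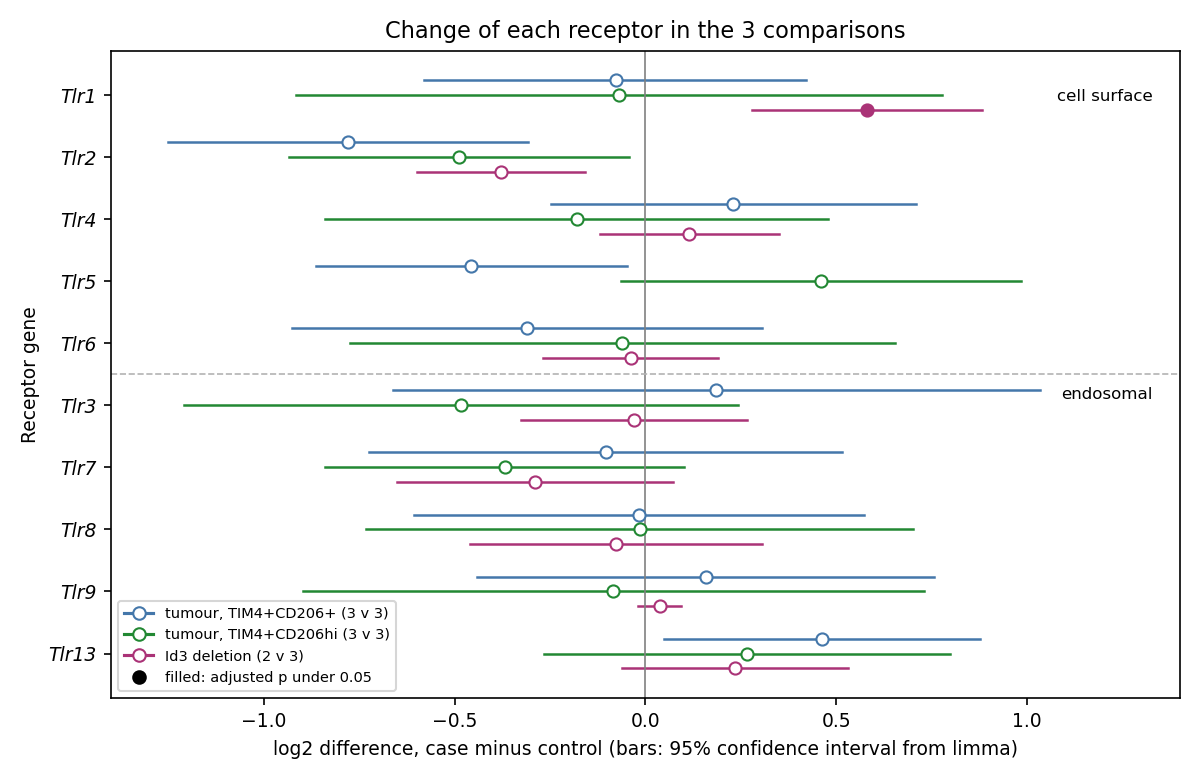
Difference of each receptor between tumour-bearing and tumour-free livers in the KC subsets, and between Clec4fCreId3f/f and Id3f/f KCs (x axis, log2; points are differences, bars the 95% confidence intervals of limma, filled points an adjusted p under 0.05). Only Tlr1 in the Id3 comparison is filled. Tlr5 is not drawn there because it did not reach the minimum value.

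Markers of other cells changed with tumour in both subsets, although the sort required F4/80 and TIM4 and left out Ly6G-positive cells among others. All 6 tested epithelial tumour genes rose in both, and their summed level went from 10.53 to 11.57 in tumour-free to 14.98 to 15.19 in tumour-bearing TIM4+CD206+ samples. In TIM4+CD206hi samples it went from 10.27 to 10.95 to 15.26 to 15.38. Neutrophil genes rose for 5 of 8 in each subset, with summed levels of 13.02 to 13.92 and then 14.91 to 15.03 in TIM4+CD206+ samples. In TIM4+CD206hi samples these were 12.45 to 13.58 and then 13.93 to 14.56. Monocyte genes rose for 3 of 7 in TIM4+CD206+ and 2 of 7 in TIM4+CD206hi samples, from 13.73 to 14.99 and from 14.47 to 14.63 to 15.28 to 15.39 and 15.28 to 15.37. Hepatocyte genes fell for 5 of 7 in each subset, from 17.08 to 17.36 to 16.49 to 16.87 in TIM4+CD206+ samples and from 16.47 to 16.86 to 16.25 to 16.51 in TIM4+CD206hi samples. B cell genes fell for 2 of 4 tested in TIM4+CD206+ samples, from 13.04 to 13.15 to 11.97 to 12.23, and for 2 of 5 in TIM4+CD206hi samples, from 11.58 to 11.94 to 10.82 to 10.92. In TIM4+CD206hi samples 2 of 6 stellate and 1 of 7 endothelial genes also fell, with summed levels of 9.99 to 10.45 and then at most 9.85, and of 17.18 to 17.84 and then 16.59 to 16.91. In TIM4+CD206+ samples 0 of 6 and 0 of 7 passed (limma), with an unadjusted p under 0.05 for 1 and 3. No plasmacytoid or conventional dendritic cell or T or NK cell gene passed in either subset (limma), and at an unadjusted p under 0.05 there were 0, 1 and 2 in TIM4+CD206+ and 0, 0 and 4 in TIM4+CD206hi samples. Of the KC markers, 2 of 10 fell in TIM4+CD206+ KCs and 0 of 10 in TIM4+CD206hi KCs (limma), where 4 of 10 had an unadjusted p under 0.05. Of all tested genes, 17.2% in TIM4+CD206+ and 21.1% in TIM4+CD206hi KCs had an unadjusted p under 0.05. No marker of these lists was at 0 in every sample. The part of these cells in the receptor values was not tested, and fewer cells of a type and less RNA per cell cannot be told apart in such samples. Sex-linked genes were followed too. In TIM4+CD206+ samples all 4 tested were higher with tumour (median difference 0.90), and Xist was at 0 throughout. Of these 4, 0 passed and 3 had an unadjusted p under 0.05 (limma). Their summed level was 9.16 to 9.70 in tumour-free and 10.12 to 10.61 in tumour-bearing samples. In TIM4+CD206hi samples 1 of 4 was higher and 0 had an unadjusted p under 0.05. Whether sex had a part in the receptor values was not tested.

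**Figure D4:**
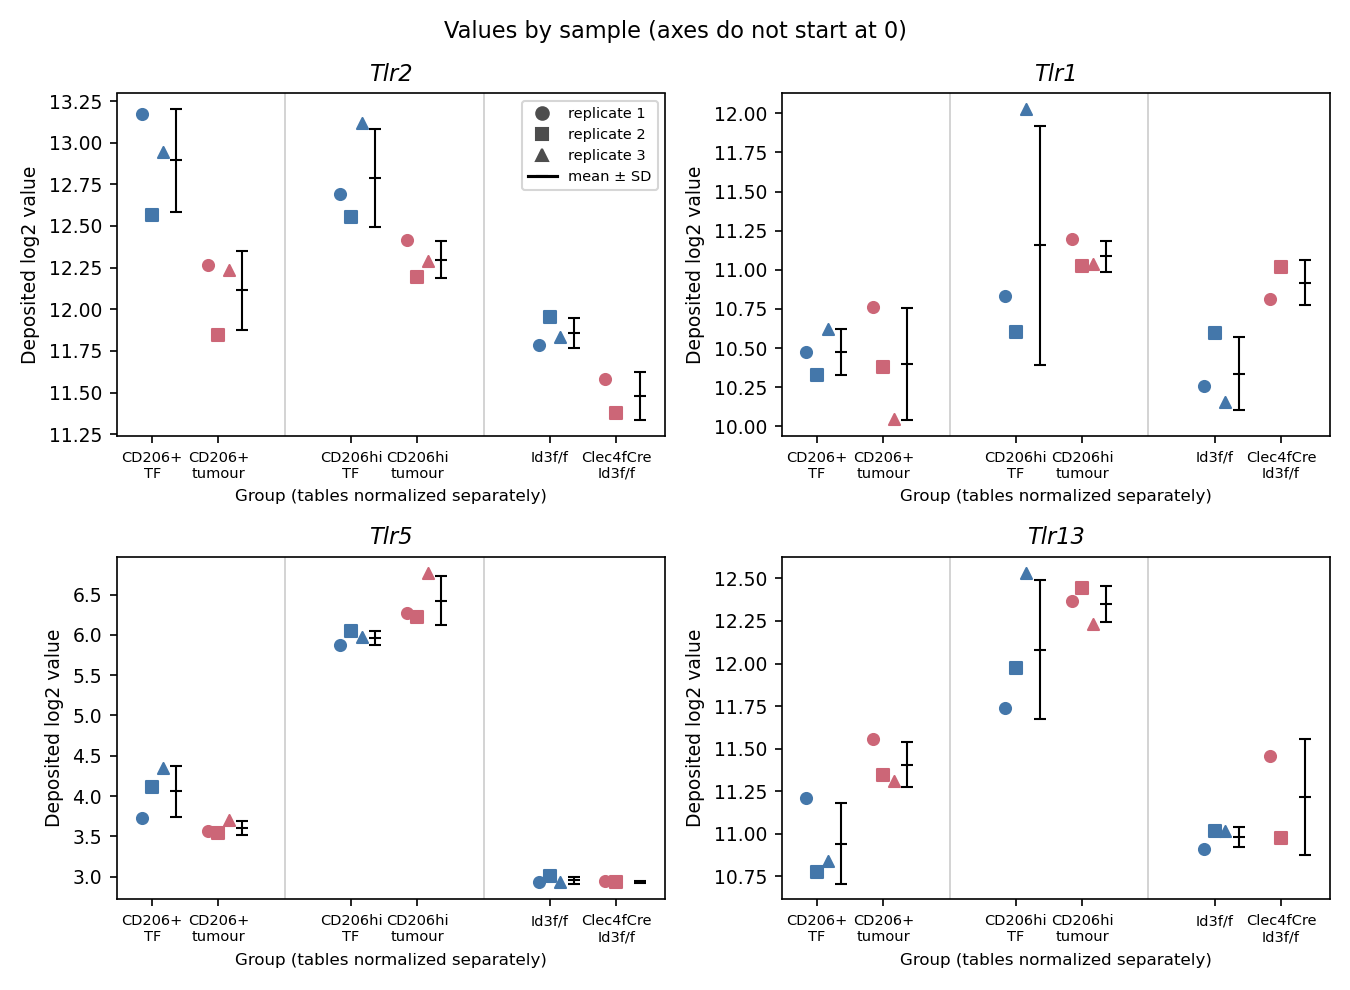
Deposited log2 values of Tlr2, Tlr1, Tlr5 and Tlr13 in each sample (y axis; TF, tumour-free; symbols mark replicate numbers, bars mean and SD), with the axes not starting at 0 and the tables normalized separately. Tlr2 is lower in each case group than in its control group without overlap, and Tlr1 is higher in both Clec4fCreId3f/f samples than in the 3 Id3f/f samples. Groups did not overlap for 23.4% (TIM4+CD206+), 30.7% (TIM4+CD206hi) and 41.9% (Id3) of all tested genes. Tlr2 had no adjusted p under 0.05 in any of these comparisons (limma).

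The third comparison asked what changes when Id3 is deleted in KCs. Id3 encodes a nuclear protein without a DNA-binding domain that binds E proteins and keeps them from DNA, and it was the targeted gene. It was at 12.58, 12.46 and 12.82 in Id3f/f and 9.83 and 9.82 in Clec4fCreId3f/f KCs, lower in both deleted samples, with a difference of −2.80 (limma adjusted p 1.41e-06). Clec4f, whose promoter drives the Cre, differed by −1.52 (limma adjusted p 1.8e-06). The genotypes also differed in sex-linked genes. Xist was at 6.33 to 6.38 in Id3f/f and 9.76 to 9.84 in Clec4fCreId3f/f KCs, and Ddx3y at 9.43 to 9.46 in Id3f/f and at most 7.01 in Clec4fCreId3f/f KCs. Sex and genotype cannot be told apart in any value of this comparison.

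Of the 10 receptors, 9 reached the minimum value, and 1 of these 9, Tlr1, had an adjusted p under 0.05 (limma, 12833 genes), where 6.44% of all tested genes did (3.08% higher and 3.37% lower). At an unadjusted p under 0.05 there were 2 of 9 receptors, against 23.6% of all genes. Of all calls 47.8% were higher, or 37.4% with each library centred on its median. Tlr1 was at 10.26, 10.60 and 10.16 in Id3f/f and 10.82 and 11.02 in Clec4fCreId3f/f KCs. Both deleted samples were above all 3 controls. Tlr1 rose by 0.58 (SE 0.13, interval 0.28 to 0.88) with a limma adjusted p of 0.0367. The call was lost in 5 of 11 other settings, without Id3f/f replicate 1 (0.123), Clec4fCreId3f/f replicate 1 (0.231) or Clec4fCreId3f/f replicate 2 (0.292), without a filter (0.0665) and without a mean-variance trend (0.0713, limma adjusted p each). The difference stayed between 0.48 and 0.71 when a sample was left out. Tlr6, which shares coding sequence with Tlr1, was at 8.30, 8.49 and 8.50 in Id3f/f and 8.33 and 8.45 in Clec4fCreId3f/f KCs (difference −0.04, interval −0.27 to 0.19).

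Tlr2 was at 11.79, 11.96 and 11.83 in Id3f/f and 11.58 and 11.38 in Clec4fCreId3f/f KCs. Both deleted samples were below the controls. The difference of −0.38 (SE 0.10, interval −0.60 to −0.16) had a limma adjusted p of 0.0515. It was 0.035 under a stricter filter, 0.0385 with median centring and 0.0173 without Id3f/f replicate 3. It was 0.0837 without a filter, 0.064 without a mean-variance trend and 0.076 under quantile normalization. The threshold was passed in 4 of 11 other settings, the replicate block among them. The differences of Tlr1 and Tlr2 thus had opposite signs, the second short of the threshold. Tlr4 differed by 0.11 (interval −0.12 to 0.35).

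No endosomal receptor passed, and none had an unadjusted p under 0.05 (limma). The X-linked genes Tlr7, Tlr8 and Tlr13 differed by −0.29, −0.08 and 0.24. Tlr7 was at 10.53, 10.34 and 10.98 and Tlr8 at 9.84, 9.79 and 10.39 in Id3f/f KCs, both highest in replicate 3. In Clec4fCreId3f/f KCs Tlr7 was at 10.39 and 10.26 and Tlr8 at 10.05 and 9.80. Both genes overlapped between the genotypes. Tlr13 was at 10.91, 11.01 and 11.02 in Id3f/f and at 11.46 and 10.97 in Clec4fCreId3f/f KCs, so that its difference rested on Clec4fCreId3f/f replicate 1 and was −0.007 without it. Tlr3 differed by −0.03 (interval −0.33 to 0.27). Tlr9 was near the minimum value, at 3.86 to 3.87 in Id3f/f and 3.89 to 3.92 in Clec4fCreId3f/f KCs. Tlr5, at 2.93 to 3.00 in all 5 samples, was below it and was not tested. Groups did not overlap for 3 of the 9 receptors (Tlr1, Tlr2 and Tlr9) and for 41.9% of all tested genes.

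The promoter regions of Tlr1 and Tlr2 are shown because these genes had the smallest p-values of the receptors in the Id3 comparison and because the E proteins that ID3 binds recognise E-boxes, CANNTG. The sequences are those of RefSeq in GRCm38.p6, read 5′ to 3′ on the minus strand, with each E-box in capitals. Only the part of the 250 bases before the start site that lies outside every GENCODE exon of the gene is printed, at chr5:64933564-64933808 for Tlr1 and chr3:83841768-83841858 for Tlr2.
Tlr1: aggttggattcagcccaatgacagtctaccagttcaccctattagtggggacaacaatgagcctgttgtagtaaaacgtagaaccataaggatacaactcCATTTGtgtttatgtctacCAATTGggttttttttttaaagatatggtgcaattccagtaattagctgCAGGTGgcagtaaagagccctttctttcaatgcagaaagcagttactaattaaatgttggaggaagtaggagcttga
Tlr2: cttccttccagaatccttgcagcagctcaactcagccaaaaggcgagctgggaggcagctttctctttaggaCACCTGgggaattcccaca
The Tlr1 region holds 3 matches and the Tlr2 region 1, and 66.2% of 32536 promoters hold CANNTG in the 250 bases before the start. The variant CAGGTG, searched on both strands like the others, is among the matches in both genes and is present in 17.3% of all promoters. Each CAGGTG is also a CANNTG. Tlr1 has a further start site in the table, with 1 match in its 250 bases. Promoters of 8 of the 10 receptors were in the table. Of the others, Tlr9 had 4 matches and Tlr13 had 2, and Tlr3, Tlr5, Tlr6 and Tlr8 had none. The matches describe the letters of these windows, and no binding was measured.

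The genes whose pattern was most like that of Tlr1 were Slc12a2 (r = 0.87), Copb2 (0.86) and Abi1 (0.86). The measure was Pearson's r over all 17 samples of values centred on the mean of each table, among 12222 genes tested in all 3 tables. The samples of a table share their normalization, so these values are a description only. Among the receptors, Tlr4 and Tlr9 had an r of 0.87 and Tlr3 and Tlr4 of 0.85 on the same scale, and Tlr2 and Tlr13 of −0.29.

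Tlr11 and Tlr12, the remaining mouse receptors, sense profilin and are not among the 10. Per kilobase, Tlr12 was above Tlr2 in tumour-free (11.53 against 11.30) and tumour-bearing TIM4+CD206+ KCs (10.56 against 10.52), with overlapping samples in both. It was below Tlr2 in the other groups. Tlr11 was at 6.05 in tumour-free TIM4+CD206+ KCs. With tumour, Tlr12 was at 13.52, 12.73 and 13.36 in tumour-free and 12.16, 12.12 and 12.42 in tumour-bearing TIM4+CD206+ samples, with all of the latter lower. The difference of −0.97 had a limma adjusted p of 0.0584. This p was 0.00746 with the replicate block, 0.0288 under quantile normalization and 0.0028 without tumour-free replicate 2. Only these 3 of 12 other settings passed. Tlr11 was at 8.01, 7.20 and 7.97 in tumour-free and 7.37, 5.27 and 5.99 in tumour-bearing TIM4+CD206+ samples, which overlapped (difference −1.52, limma adjusted p 0.175, and 0.0129 with the block). In TIM4+CD206hi KCs the differences of Tlr12 and Tlr11 were −0.51 and −0.81, with limma adjusted p of 0.377 and 0.224. In the Id3 comparison they were 0.32 and 0.10, with limma adjusted p of 0.152 and 0.514.

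The rest of the pathway was followed in 6 lists of 73 genes, which were chosen with earlier results of these data known. With tumour, 1 of 71 tested genes passed in TIM4+CD206+ KCs (1.41%, beside 3.54% of all genes) and 2 of 72 in TIM4+CD206hi KCs (2.78%, beside 7.23%), all lower in tumour-bearing livers. Cxcl10, an interferon-induced chemokine and target of the receptors, fell in both. It was at 10.39, 9.53 and 10.20 in tumour-free and 8.45, 8.40 and 8.62 in tumour-bearing TIM4+CD206+ KCs. The groups did not overlap, and the difference was −1.55 (SE 0.26, limma adjusted p 0.0158). Leaving out any sample but tumour-free replicate 2 took this p to 0.0558 to 0.0778. In TIM4+CD206hi KCs it was at 12.42, 10.70 and 12.61 and then at 9.36, 9.77 and 10.00, again without overlap. The difference was −2.20 (limma adjusted p 0.0425), and the call was lost in 7 of 12 other settings.

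Irf7, the interferon regulatory factor downstream of endosomal receptors, was at 14.89, 14.55 and 15.10 in tumour-free and 14.06, 13.91 and 14.11 in tumour-bearing TIM4+CD206hi KCs. It fell by 0.82 on the log2 scale (limma adjusted p 0.0438), a call that was lost in 9 of 12 other settings. In TIM4+CD206+ KCs its difference was −0.95 (limma adjusted p 0.0863, and 0.0233 with the replicate block), and that of Irf1 was −0.92 (0.0502, and 0.0108 with the block). Under quantile normalization these p were 0.0394 for Irf7 and 0.011 for Irf1. Each gene passed in 3 of 12 other settings. The list of 10 transcription factors had a median difference of −0.37 in TIM4+CD206+ KCs and 0.06 in TIM4+CD206hi KCs, beside 0.02 and 0.03 for all tested genes.

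No co-receptor, transport, adaptor or negative regulator gene passed the test with tumour in either subset (limma). In TIM4+CD206+ KCs, 2 of 6, 2 of 10, 1 of 18 and 3 of 14 genes of these lists had an unadjusted p under 0.05. In TIM4+CD206hi KCs these were 3 of 6, 0 of 10, 1 of 18 and 2 of 15. The shares over all tested genes were 17.2% and 21.1%. The closest in TIM4+CD206+ KCs were the signalling adaptor Pik3ap1 (−0.75, limma adjusted p 0.0642, and 0.0216 with the block) and the deubiquitinase Tnfaip3 (−1.07, 0.065, and 0.0236 with the block). Unc93b1, the chaperone that carries endosomal receptors to their compartment, was at 16.55, 16.20 and 16.52 in tumour-free and 15.87, 15.81 and 15.88 in tumour-bearing TIM4+CD206+ samples. All tumour-bearing samples were lower (difference −0.57, limma adjusted p 0.111). This p was 0.0317 under quantile normalization and 0.00565 without tumour-free replicate 2, and only these 2 of 12 other settings passed. The receptor chaperone Hsp90b1 differed by 0.64 (limma adjusted p 0.143, and 0.0346 with the block) and the kinase gene Chuk by 0.95 (0.177, and 0.0427 with the block). The lipopolysaccharide co-receptor Cd14 and the Tlr4 homologue Cd180 differed by −0.38 and −0.60 in TIM4+CD206+ KCs (limma adjusted p 0.259 and 0.196), and the kinase subunit Ikbkg by −0.37 (0.341). In TIM4+CD206hi KCs the closest was Ly96, the lipopolysaccharide-binding partner of Tlr4, with a difference of −0.77 (limma adjusted p 0.0568). All 6 co-receptor genes had a difference below 0 there, with a median of −0.51. The negative regulator gene Il1rl1 differed by 1.05 (limma adjusted p 0.151), Tnip1 by −0.64 (0.181), Chuk by 0.87 (0.23), Tab3 by 0.62 (0.241) and Lbp by −0.46 (0.194). The proteases Lgmn and Ctsl differed by −0.25 and −0.38 (limma adjusted p 0.46 and 0.497). Of these, Ly96, Lbp, Ctsl, Chuk and Tnip1 had an adjusted p under 0.05 without tumour-free replicate 2, when 3633 genes passed in place of 1053.

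The shares given next rest on lists chosen with earlier results of these data known, and they do not test the pathway. With Id3 deletion, 14 of 69 tested pathway genes passed (20.3%, beside 6.44% of all genes), 4 higher and 10 lower. As with Tlr1, all of these calls were lost when either Clec4fCreId3f/f sample was left out, with 17 and 19 calls then left over all genes. The highest adjusted p for these 14 genes without one of the 2 samples was 0.327. Ly86, the partner of the Tlr4 homologue Cd180, was the only co-receptor gene past the threshold. It was at 14.09, 13.94 and 14.10 in Id3f/f and 13.48 and 13.41 in Clec4fCreId3f/f KCs. It was lower in both deleted samples, by 0.60 (SE 0.08, limma adjusted p 0.00551).

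Of 10 genes for transport and processing of endosomal receptors, 3 passed. The proteases Ctsb and Ctss, which cleave the receptors in endolysosomes, fell by 0.55 and 0.31 on the log2 scale (limma adjusted p 0.00151 and 0.0192). Under quantile normalization the differences were −0.13 and −0.07, with limma adjusted p of 0.243 and 0.6. The transporter Slc15a4 rose by 0.48 (limma adjusted p 0.0151). Unc93b1 was not past the threshold. Of 18 adaptors and kinases, Ikbke, a kinase that activates interferon regulatory factors, rose by 0.45 (limma adjusted p 0.0362, and 0.0618 without a filter). Of 10 transcription factors, Irf7 and Irf1 fell by 0.47 and 0.53 (limma adjusted p 0.0133 and 0.0167).

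Negative regulators passed in both directions, 2 higher and 2 lower of 14 tested. Irak3, a kinase-like inhibitor of receptor signalling, was at 9.27, 9.32 and 8.97 in Id3f/f and 10.08 and 9.97 in Clec4fCreId3f/f KCs. It rose by 0.83 (SE 0.12, limma adjusted p 0.00618), and Pik3ap1 rose by 0.69 (0.0158). Lgals9, which encodes galectin-9, and Socs1, an inhibitor of cytokine signalling, fell by 0.52 and 0.48 (limma adjusted p 0.00967 and 0.0237). Target genes passed in the lower direction, 3 of 11 tested. Cxcl10 was at 10.12, 10.15 and 9.85 in Id3f/f and 9.04 and 9.10 in Clec4fCreId3f/f KCs, and it fell by 0.97 (limma adjusted p 0.00266). The cytokine genes Il1b and Il10 fell by 0.64 and 0.36 (limma adjusted p 0.00618 and 0.0388, the latter 0.0502 without a filter). The summed level of the target list was 12.27 to 12.49 in Id3f/f and 11.81 in both Clec4fCreId3f/f samples.

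**Figure D5:**
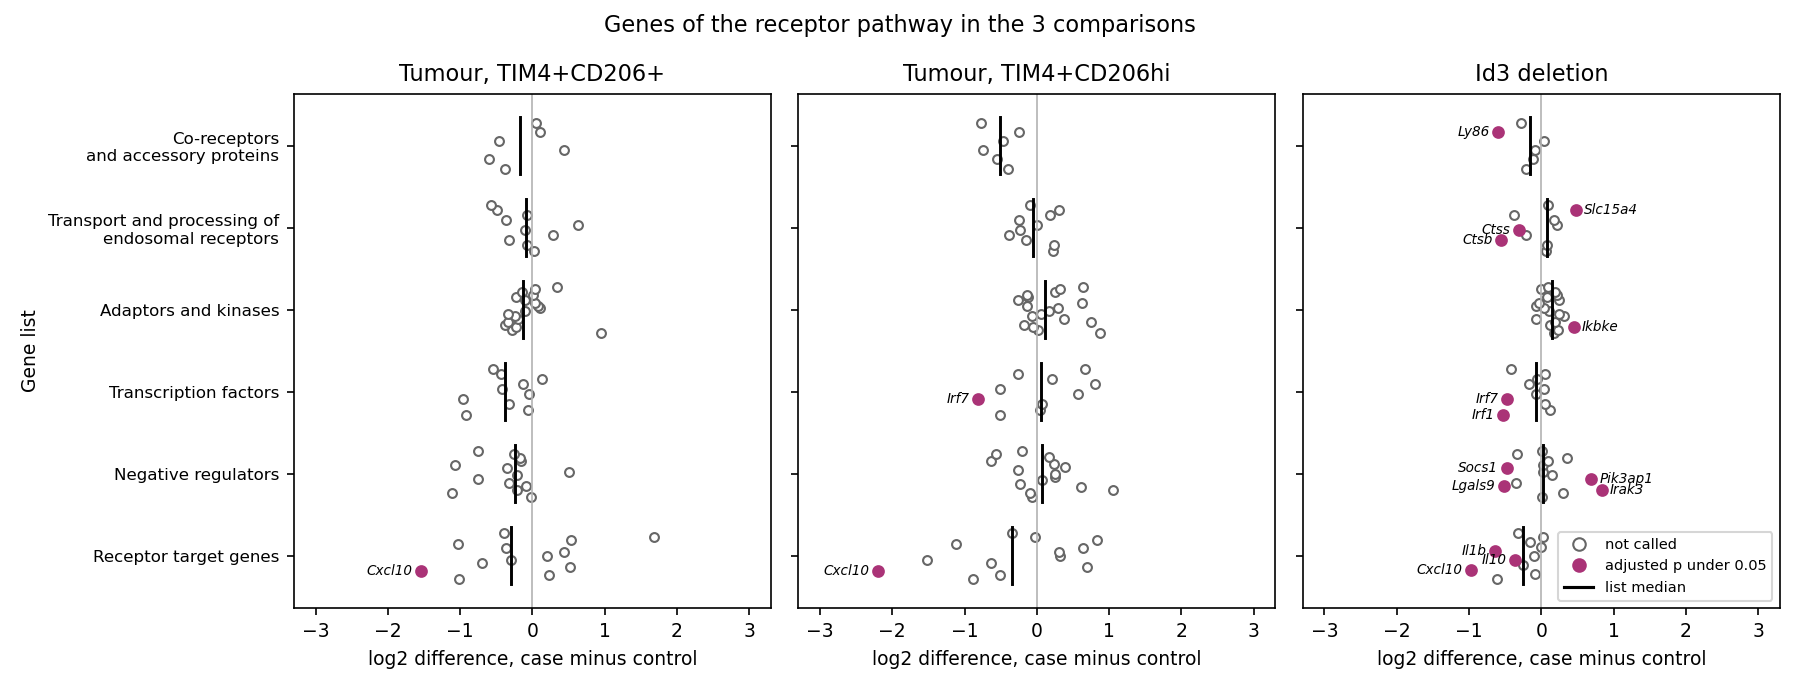
Difference of each tested gene of the 6 pathway lists in the 3 comparisons (x axis, log2, case minus control; rows are lists, filled points an adjusted p under 0.05 in limma, black bars list medians). With tumour the filled genes are Cxcl10 in both KC subsets and Irf7 in TIM4+CD206hi KCs. With Id3 deletion 14 genes are filled, 10 of them lower.

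Markers of other cells were also followed in the Id3 comparison. None of the tested neutrophil, B cell, dendritic cell, T or NK cell, hepatocyte, epithelial or stellate genes passed (limma). An unadjusted p under 0.05 was found for 3 of them and for 23.6% of all tested genes. Of the monocyte list 1 of 6 tested genes was lower, and its summed level was 13.61 to 13.87 in Id3f/f and 12.87 to 12.99 in Clec4fCreId3f/f KCs. Of 7 endothelial genes, 1 rose and 1 fell. KC markers passed for 5 of 10, with 2 higher and 3 lower. The part of these in the receptor and pathway values was not tested.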

How the data were processed

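RNA of sorted KCs was amplified with SMART-Seq v4 and sequenced as paired reads. The authors' processing notes name STAR 2.7.10a, HTSeq, DESeq2 and mm10. The deposited values are log2 values per gene with the features of a regularized log transformation, made by the authors separately for each of the 3 tables, although the columns are named TPM. All 17 columns were matched to samples by label. No counts per gene were used, so the depth behind a value is not known. The sums on a linear scale are of normalized and transformed values and do not give it.

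Groups followed the labels. Genes were tested when the value reached log2 of 10 in 3 samples (2 in the Id3 table), with limma 3.58.1 in R 4.3.3 (trend, Benjamini-Hochberg over all tested genes, two-sided). Genes with an adjusted p under 0.05 were called. The main model had no block. The replicate numbers are those of the sample labels. Same-numbered samples deviated together from their group means in TIM4+CD206+ KCs (r = 0.35, 0.56 and 0.15 across genes). Block values are given there as an alternative. Differently numbered samples were not compared in this way and the labels state no pairing, so whether samples were paired is not known. The fit was tested on simulated data. Alternatives were no filter, a stricter filter (a mean deposited value of at least log2 of 50), the block, no trend, median centring, quantile normalization and each sample left out.

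The members, the pathway and marker lists and the rule for named genes were chosen with earlier results of these data known. All 10 receptors were named, and of each pathway list the genes past 0.05 (at most 4) or otherwise the 2 with the smallest p. The genes most like a receptor were sought for receptors past 0.05, of which there was 1. The files list no transcript length, so the longest coding transcript of GENCODE M21 basic was used for levels per kilobase. Tables were made with Python 3.11.15, numpy 2.4.6, pandas 2.3.3 and matplotlib 3.10.9. The study's methods take replicates as biological, and the labels name no mouse or day. One marker gene is not reported here, and the counts of its list leave it out, a choice made after its values were seen. Exons around the printed promoters were those of the full GENCODE M21 annotation.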

Additional observations from a re-analysis of the deposited data

Results flagged for a closer look

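Tlr5 was singled out because its groups did not overlap in either KC subset and lay in opposite directions. The difference between tumour-bearing and tumour-free samples was −0.46 in TIM4+CD206+ KCs and 0.46 in TIM4+CD206hi KCs (log2). Under quantile normalization these were −0.51 and 0.051. Each was higher or lower in 3 of 3 samples, and neither had an adjusted p under 0.05 (limma). The difference between the subsets was not tested. Of the 13110 genes tested in both subsets, 114 (0.87%) showed such opposite and separate groups.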

How the results depend on the processing

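The counts of calls depended on single samples. Over all genes, 469 passed in TIM4+CD206+ KCs, 231 to 1032 with a sample left out (1032 without tumour-free replicate 2) and 1026 with the replicate block. In TIM4+CD206hi KCs 1053 passed, 444 to 3633 with a sample left out (3633 without tumour-free replicate 2) and 600 under the stricter filter. In the Id3 comparison 827 passed, 17 to 1850 with a sample left out (17 and 19 without a Clec4fCreId3f/f sample, 1850 without Id3f/f replicate 3), 477 without a filter and 2089 with the block. Where 1 Clec4fCreId3f/f sample was left, it was assumed to vary like the Id3f/f group.

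The number of receptors past the threshold was 0 in TIM4+CD206+ KCs and 1 with the block, and 0 to 1 with a sample left out. It was 0 in TIM4+CD206hi KCs and 0 to 1 with a sample left out. In the Id3 comparison it was 1, and it was 0 without a filter or a trend, 2 under the stricter filter, median centring or the block, and 0 to 2 with a sample left out. In the last table and in TIM4+CD206hi KCs same-numbered samples did not deviate together (r of −0.07 and −0.10, and of −0.13 to −0.05). There the block moved the count of all calls to 2089 and 909. It took the adjusted p of Tlr1 to 2.42e-04 and of Tlr2 to 0.0026 in the Id3 comparison (limma). There Id3f/f replicate 3 has no same-numbered partner, so the block differences were those without it (0.489 for Tlr1, −0.392 for Tlr2). Little is then left to estimate the spread, and these block p-values carry little weight.

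Some small differences changed sign. Tlr8 was 0.008 in TIM4+CD206+ KCs and 0.027 in TIM4+CD206hi KCs under quantile normalization, and with the block Tlr3 was 0.051 and Tlr8 0.11 in the Id3 comparison. With a sample left out, in TIM4+CD206+ KCs Tlr1 ranged from −0.26 to 0.10, Tlr3 from −0.17 to 0.42, Tlr7 from −0.30 to 0.18, Tlr8 from −0.21 to 0.17 and Tlr9 from −0.041 to 0.28. In TIM4+CD206hi KCs Tlr1 ranged from −0.34 to 0.37, Tlr4 from −0.45 to 0.11, Tlr6 from −0.23 to 0.26, Tlr8 from −0.34 to 0.29 and Tlr9 from −0.41 to 0.26. In the Id3 comparison Tlr3 ranged from −0.16 to 0.051, Tlr6 from −0.10 to 0.023, Tlr8 from −0.20 to 0.11 and Tlr13 from −0.007 to 0.48. Without the division by length, the surface minus endosomal median was −0.21 in tumour-free and 0.086 in tumour-bearing TIM4+CD206hi KCs and 0.79 in tumour-bearing TIM4+CD206+ KCs. The cause of these changes was not tested. The transformation of the values limits what can be seen for Tlr5 and Tlr9, the receptors with the lowest values.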
